A study of Mus musculus with 14 samples.

Results

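The genes described here are 35 genes of mitochondrial fatty acid oxidation and of the PPAR-alpha programme, taken by symbol from a table of 54532 mouse genes. All 35 were found, and all 35 passed the filter on low counts. Ventricular heart tissue was taken 1 week after transverse aortic constriction (TAC), in which the aorta is narrowed so that the heart pumps against a higher pressure, or after a sham operation. The 4 groups were wild type sham (n = 2), wild type TAC (n = 6), Ccl24 knockout sham (n = 2) and Ccl24 knockout TAC (n = 4). The knockout groups lack Ccl24, a chemokine gene, and nothing else distinguishes the 2 genotypes in the labels. The sources used here do not give the knockout allele or the strain, age and sex of the mice. The numbers of mice in the series design equal the numbers of libraries, and each library was taken as 1 heart.

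The adult heart takes most of its energy from fatty acids. They enter the cardiomyocyte through carriers such as CD36, are activated to acyl-CoA, cross into mitochondria as carnitine esters, and are shortened there by a repeating cycle of dehydrogenation, hydration, a further dehydrogenation and thiolysis. PPAR-alpha (Ppara), a nuclear receptor that senses fatty acids, and the oestrogen-related receptors (Esrra and Esrrg) switch on many of these genes with the coactivators Ppargc1a and Ppargc1b. Lower expression of this programme is a known feature of hearts under pressure overload.

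The libraries held 17072262 to 33123052 counts, and the 35 genes took 0.915 to 1.82% of them. Levels are CPM, counts scaled to a common library size with TMM normalization. The log2 fold changes, standard errors (SE) and adjusted p-values come from edgeR's quasi-likelihood test, adjusted by the Benjamini-Hochberg method over all genes tested. A gene is called where its adjusted p is under 0.05. In wild type TAC, replicate 1 (the library labelled WT TAC 1) held 3 Ccl24 counts, against 56 to 105 in the other wild type libraries and 3 to 8 in the knockout libraries. These counts go against the label. The library stays in the group that its label names, and the results that rest on it are also given with it left out. Cardiomyocyte structure genes were present in every library, with summed levels of 54800 to 72400 CPM over 14 genes, and Nppb, a gene of the loaded ventricle, was higher after TAC averaged over the genotypes (log2 fold change 1.32 ± 0.19 SE, adjusted p = 0.00056). Of 11 adipocyte markers 4 passed the filter, and their list summed to 63 to 100 CPM per library. Adipoq and Plin1 held 0 to 9 and 0 to 6 counts, whereas Cidea and Lipe held 356 to 1027 and 782 to 2297 (4 genes chosen after their values were seen).

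In unstressed wild type hearts the genes covered a wide span of levels. Per kilobase of exon, Fabp3, the fatty acid carrier of the cytosol, stood highest at 4160 CPM per kb. Acadl and Acaa2, a dehydrogenase and the thiolase of the cycle, followed at 466 and 458 CPM per kb, and Cd36 at 354. The regulators were far scarcer, with 32.1 CPM per kb for Esrra, 10.9 for Ppargc1a, 5.27 for Ppara, 4.56 for Esrrg and 3.83 for Ppargc1b. The lowest were Cpt1b at 0.964 and Acot1 at 0.643 CPM per kb. For Cpt1b, the carnitine acyltransferase of muscle mitochondria, and for Etfb, a subunit of the electron transfer flavoprotein, the level may be too low. Of the exon bases of Cpt1b, 81.4% also belong to the gene model Gm44502 on the same strand, and 58.2% of those of Etfb to Gm45233 and Mir7051. Both Gm genes are listed at 0 in all 14 libraries, so the counts of Cpt1b and Etfb may come only from the 18.6% and 41.8% of exon bases that are not shared. Acot1 and Acot2 share 19.2% and 27.7% of their exonic 50-mers with other genes, mostly with each other and their family, and the split of reads between them is uncertain. Fabp3, Acadvl and Hadhb share 37.3%, 26.9% and 19.7% with other genes, which may affect their levels too.

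**Figure D1:**
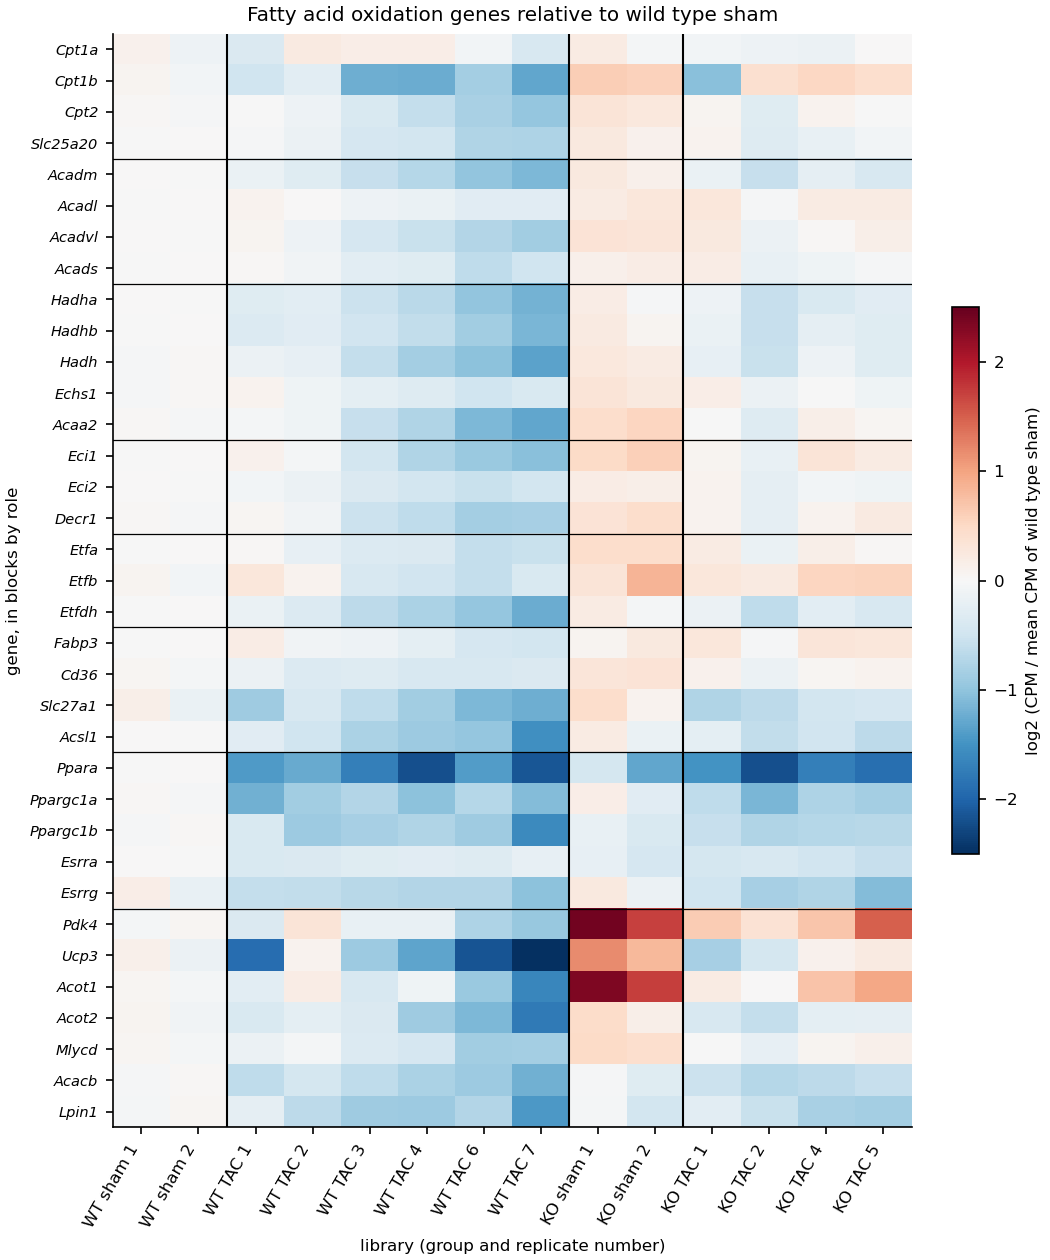
Level of each of the 35 genes (rows, in blocks by role) in each of the 14 libraries (columns, by group and replicate number), as log2 of CPM over the mean of the wild type sham libraries. Blue marks lower and red higher levels. Ppara and the other regulators are blue in every TAC heart of both genotypes, and Pdk4 and Acot1 are red in the knockout sham hearts.

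After TAC, 11 of the 35 genes fell in wild type hearts. All 35 had a fold change below 1 with all libraries, Cpt1a only just (a log2 value of -0.02, and 0.04 without the library labelled WT TAC 1). Those called were all 5 transcription regulators, Hadha and Hadhb of the mitochondrial trifunctional protein, Slc27a1 and Acsl1 of fatty acid uptake and activation, Acacb and Lpin1. The median log2 fold change of the 35 was -0.46, beside 0.01 over all genes, and 5.8% of all genes tested were called lower. Without the library labelled WT TAC 1, 21 of 35 were called lower, with a median of -0.60 and 8.1% of all genes. The wild type sham group of 2 hearts sets this comparison: without sham replicate 1 or without sham replicate 2 none of the 35 was called. There were 20 calls with wild type TAC replicate 2 omitted and 7 with replicate 4 or replicate 6 omitted.

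In knockout hearts 34 of the 35 were below a fold change of 1 after TAC and 4 were called lower: Slc27a1, Ppargc1a, Esrrg and Acot1. The median was -0.42, beside -0.01 over all genes, of which 1.73% were called lower. When the library labelled WT TAC 1 was left out of the joint fit, 4 were again called, beside 2.44% of all genes. No call was left without knockout sham replicate 1, 2 were left without knockout TAC replicate 2, and there were 7 without wild type TAC replicate 7, which shares the estimate of the spread. Slc27a1, Ppargc1a and Esrrg were called in both genotypes.

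Averaged over the genotypes, the TAC effect called 22 of the 35, all lower, with a median of -0.53 beside -0.00 over all genes, of which 11.6% were called lower. Without the library labelled WT TAC 1 it called 29, beside 13.1% of all genes. It called 8 without wild type sham replicate 1, 11 without wild type sham replicate 2 and 7 without knockout sham replicate 1. Slc27a1, Ppara, Ppargc1a, Ppargc1b, Esrrg and Acacb kept their call whichever of the 14 libraries was omitted. Single libraries mattered most for Slc25a20, Acot2 and Pdk4, whose calls were lost in 9, 8 and 6 of these fits, and most other losses came from omitting a sham heart. The summed level of the 35 genes was 15500 to 15600 CPM in wild type sham, 9090 to 14800 in wild type TAC, 18300 to 19000 in knockout sham and 12900 to 16200 in knockout TAC. Over the same groups the share of mitochondrially encoded counts was 18.5 to 18.8%, 10.1 to 17.1%, 20.5 to 23.7% and 14.9 to 19.2%. Summed fibroblast markers were 1910 to 2180, 3160 to 9750, 1710 to 1860 and 2270 to 3860 CPM, and summed macrophage markers 407 to 429, 518 to 984, 420 to 443 and 447 to 596 CPM. Their part in the lower levels was not tested. In bulk tissue, fewer cardiomyocytes and less RNA per cardiomyocyte cannot be told apart. Scaled to the 14 cardiomyocyte structure genes, 11, 4 and 24 of the 35 were called in the wild type, knockout and averaged comparisons. The share of all genes called with this scaling is not given here, so these counts have no background beside them. With TMM, 2 of the 14 scaling genes were themselves called lower and 2 higher in the averaged comparison, with log2 values from -0.51 to 0.90.

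The hearts of the wild type TAC group differed in depth of the decrease. With 2 sham hearts many genes lie below both, and the share of all genes tested that did so was 38.7 to 44.2% in the 6 wild type and 37.9 to 40.3% in the 4 knockout TAC hearts. In the library labelled WT TAC 1, 25 of 35 genes lay below both wild type sham hearts, with a median log2 ratio to the sham mean of -0.17, and in replicate 2, 29 lay below with a median of -0.20. Replicates 3, 4, 6 and 7 had 34, 34, 34 and 35 genes below, with medians of -0.46, -0.63, -0.85 and -1.04. In the library labelled WT TAC 1 and replicates 2, 3, 4, 6 and 7, Nppb stood at 915, 558, 812, 929, 749 and 1320 CPM. In the same order Acta1, a gene of the loaded heart, stood at 12900, 9290, 14000, 16000, 16200 and 19600 CPM, and the mitochondrially encoded share at 17.1, 16.7, 11.6, 13.1, 14.6 and 10.1%. The 4 knockout TAC hearts, set against their own sham hearts, had 31 to 34 of the 35 genes below and medians of -0.30 to -0.61.

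All 5 transcription regulators were called lower in wild type and in the averaged comparison, beside 5.8% and 11.6% of all genes. Ppara stood at 20 and 20.3 CPM in the wild type sham hearts and at 4.39 to 8.45 (median 6.84, and 7.53 in the library labelled WT TAC 1) after TAC. It stood at 14.8 and 8.18 in knockout sham and at 7.14, 4.37, 6.19 and 5.46 in knockout TAC hearts. No TAC heart of either genotype reached the sham hearts of its genotype, although the knockout sham hearts were themselves below the wild type sham hearts. Ppara fell by 1.65 ± 0.24 SE on the log2 scale in wild type (adjusted p = 0.0046) and by 1.70 without the library labelled WT TAC 1 (adjusted p = 0.003). In the knockout its log2 fold change was -0.99 ± 0.28 SE (adjusted p = 0.057).

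Ppargc1a, a coactivator of mitochondrial genes, was at 73.2 and 70.6 CPM in wild type sham, 31.3 to 43.8 (median 37.4) in wild type TAC, 80.2 and 58.9 in knockout sham and 46.4, 32.5, 42 and 39.9 in knockout TAC. The TAC hearts of both genotypes formed a similar band below all sham hearts. It fell by 0.93 ± 0.14 SE in wild type (adjusted p = 0.0052) and by 0.79 ± 0.16 in the knockout (adjusted p = 0.012), both on the log2 scale. Esrrg, an orphan receptor of oxidative muscle, was at 31.6 and 24.9 CPM in wild type sham, 13.8 to 18.6 (median 17.2) in wild type TAC, 33.3 and 25.5 in knockout sham and 20.1, 15.9, 16.7 and 13.3 in knockout TAC. The groups did not overlap between TAC and sham in either genotype. Its log2 fold change was -0.73 ± 0.15 SE in wild type (adjusted p = 0.011) and -0.83 ± 0.16 in the knockout (adjusted p = 0.01).

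Ppargc1b, the related coactivator, was at 15 and 15.6 CPM in wild type sham, 5.06 to 11.7 (median 8.38) in wild type TAC, 13.4 and 11.8 in knockout sham and 10.2, 9.09, 9.32 and 9.42 in knockout TAC. Its highest wild type TAC value was that of the library labelled WT TAC 1. It fell by 0.86 ± 0.19 SE on the log2 scale in wild type (adjusted p = 0.015), and in the knockout the log2 fold change was -0.40 ± 0.21 (adjusted p = 0.29). Esrra, a receptor that works with both coactivators, was at 143 and 140 CPM in wild type sham, 109 to 122 (median 114) in wild type TAC, 122 and 106 in knockout sham and 105, 107, 101 and 94.9 in knockout TAC. It fell by 0.30 ± 0.08 SE on the log2 scale in wild type (adjusted p = 0.029), a call lost with scaling to the cardiomyocyte structure genes (adjusted p = 0.095), while in the knockout its sham and TAC hearts overlapped (-0.16 ± 0.09, adjusted p = 0.32).

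**Figure D2:**
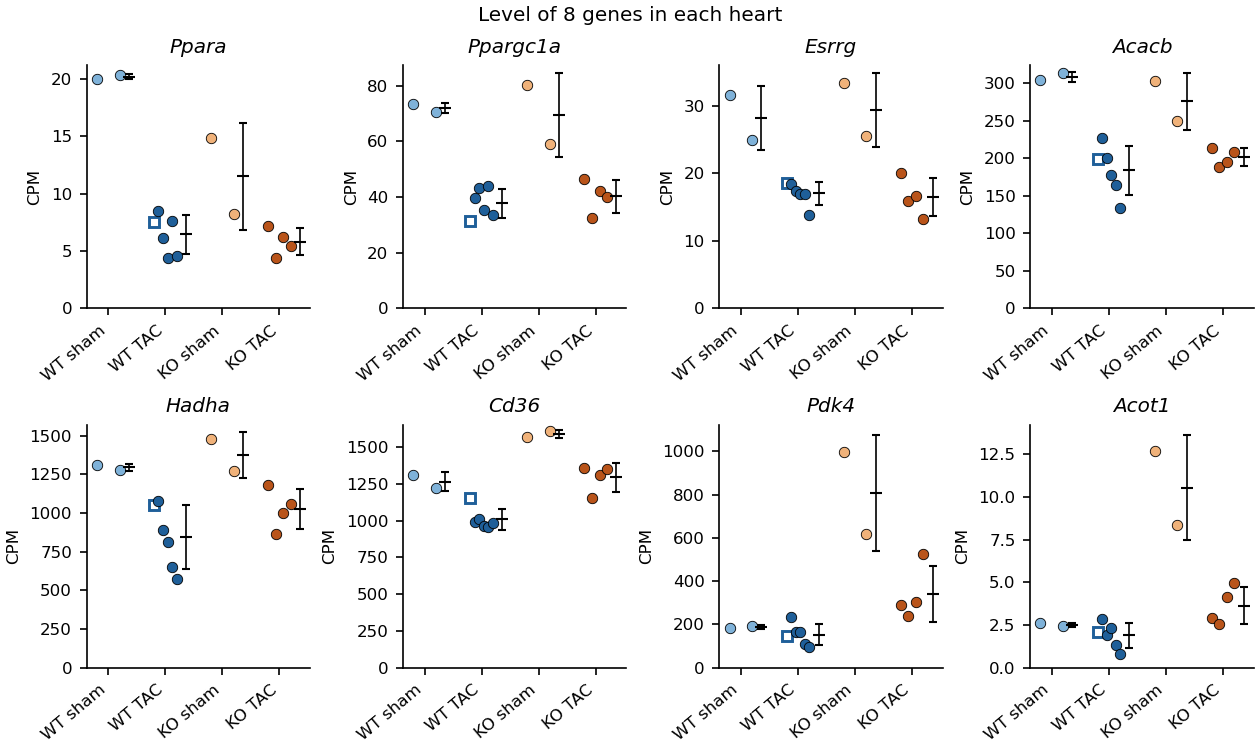
Level in CPM (y axis, from 0) of 8 genes in each heart, by group (x axis). Points are hearts, the open square is the library labelled WT TAC 1, and bars show the group mean with its SD. Ppara, Ppargc1a, Esrrg and Acacb are lower in TAC than in sham hearts of the same genotype, and Pdk4 and Acot1 are highest in the knockout sham hearts.

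Of the 4 uptake and activation genes, 3 were called lower in the averaged comparison (beside 11.6% of all genes) and Fabp3 was not. Slc27a1, a fatty acid transport protein of the plasma membrane, was at 166 and 134 CPM in wild type sham, 64 to 114 (median 81.1) in wild type TAC, 203 and 160 in knockout sham and 89.6, 95, 109 and 112 in knockout TAC. Its decrease was of the same size in both genotypes, at -0.84 ± 0.17 SE (adjusted p = 0.013) and -0.84 ± 0.19 (adjusted p = 0.023) on the log2 scale. Acsl1, the main acyl-CoA synthetase of the heart, was at 684 and 669 CPM in wild type sham, 233 to 556 (median 375) in wild type TAC, 777 and 604 in knockout sham and 575, 443, 484 and 427 in knockout TAC. It fell by 0.78 ± 0.23 SE on the log2 scale in wild type (adjusted p = 0.039), and its value in the knockout was -0.52 ± 0.24 (adjusted p = 0.25).

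Cd36, the membrane carrier of long-chain fatty acids, was at 1310 and 1220 CPM in wild type sham, 956 to 1150 (median 988) in wild type TAC, 1570 and 1610 in knockout sham and 1360, 1150, 1310 and 1350 in knockout TAC. The 5 other wild type TAC hearts lay at 956 to 1010, below the 1150 of the library labelled WT TAC 1. Cd36 fell by 0.31 ± 0.08 SE on the log2 scale averaged over the genotypes (adjusted p = 0.0095). Fabp3, by contrast, overlapped between sham and TAC in both genotypes (averaged log2 fold change -0.06 ± 0.12 SE, adjusted p = 0.74). It was called in no comparison with all 14 libraries. Without the library labelled WT TAC 1, Fabp3 was called higher in knockout than in wild type hearts after TAC (0.48, adjusted p = 0.0074).

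Beside 11.6% of all genes called lower in the averaged comparison, the carnitine shuttle, which carries acyl groups across the inner membrane, had 1 of 4 members called. This was Slc25a20, the carnitine-acylcarnitine exchanger, at 124 and 125 CPM in wild type sham, 72.8 to 122 (median 91.5) in wild type TAC, 147 and 135 in knockout sham and 132, 100, 109 and 119 in knockout TAC. It fell by 0.35 ± 0.12 SE on the log2 scale (adjusted p = 0.046). Cpt1b was at 3.41 and 3.09 CPM in wild type sham, 1.32 to 2.72 (median 1.59) in wild type TAC, 4.98 and 4.85 in knockout sham and 1.57, 4.3, 4.68 and 4.37 in knockout TAC, on 35 counts or more per library. Knockout TAC replicate 1 stood apart from the other 3 hearts of its group, and the averaged TAC effect was -0.62 ± 0.25 SE (adjusted p = 0.075). Cpt2, the matrix acyltransferase, gave -0.38 ± 0.15 SE (adjusted p = 0.069) and -0.43 without the library labelled WT TAC 1 (adjusted p = 0.02). Cpt1a, the isoform abundant in liver, gave -0.09 ± 0.11 SE (adjusted p = 0.56).

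Among the later enzymes of the cycle, the trifunctional protein genes were called in wild type. Hadha, its alpha subunit, was at 1310 and 1280 CPM in wild type sham, 570 to 1080 (median 850) in wild type TAC, 1480 and 1270 in knockout sham and 1180, 866, 1000 and 1060 in knockout TAC. Hadhb, its beta subunit, was at 1180 and 1190, 535 to 973 (median 813), 1390 and 1250, and 1060, 791, 1010 and 959 CPM in the same groups. Both were highest in the sham hearts and lowest in wild type TAC replicate 7. In wild type Hadha fell by 0.63 ± 0.20 SE (adjusted p = 0.049) and Hadhb by 0.59 ± 0.18 (adjusted p = 0.044) on the log2 scale. The calls stand near the threshold, and omitting single libraries ended them in 9 of 14 fits for Hadha and 8 for Hadhb. In the knockout the values were -0.42 ± 0.21 SE (adjusted p = 0.27) and -0.47 ± 0.19 (adjusted p = 0.18).

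Hadha and Hadhb lie head to head on chromosome 5 of GRCm38. Hadha runs on the minus strand from 30118304 to 30155162 and Hadhb on the plus strand from 30155248 to 30184593, so their starts are 85 bases apart in the GENCODE annotation. The interval between these genes is shown because both lie at its edges and had like values in each heart. It was read from RefSeq on GRCm38.p6, on the plus strand at chr5:30155163-30155247.
Hadha-Hadhb interval: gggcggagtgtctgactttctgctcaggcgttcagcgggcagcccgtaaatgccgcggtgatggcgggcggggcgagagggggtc
None of the motifs searched below occurs in this interval.

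Hadh, the short-chain hydroxyacyl-CoA dehydrogenase, was at 469 and 491 CPM in wild type sham, 189 to 432 (median 291) in wild type TAC, 578 and 553 in knockout sham and 414, 328, 437 and 391 in knockout TAC. No TAC heart reached the sham hearts of its genotype, and it fell by 0.58 ± 0.17 SE on the log2 scale averaged over the genotypes (adjusted p = 0.028). Echs1, the hydratase, and Acaa2, the thiolase, missed the threshold at -0.27 ± 0.10 SE (adjusted p = 0.054) and -0.54 ± 0.19 (adjusted p = 0.057), and passed it without the library labelled WT TAC 1 (adjusted p = 0.011 and 0.021).

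The acyl-CoA dehydrogenases open each turn of the cycle and differ in the chain length they accept. Acadm, the medium-chain enzyme, was at 907 and 896 CPM in wild type sham, 415 to 802 (median 578) in wild type TAC, 1070 and 986 in knockout sham and 799, 601, 773 and 680 in knockout TAC. Averaged over the genotypes it fell by 0.56 ± 0.14 SE on the log2 scale (adjusted p = 0.012). The long-chain enzyme Acadl was at 922 and 946, 763 to 989 (median 840), 1080 and 1130, and 1140, 921, 1080 and 1080 CPM in the 4 groups, with an averaged value of -0.10 ± 0.09 SE (adjusted p = 0.45). Acadvl and Acads, the very-long-chain and short-chain enzymes, gave -0.32 ± 0.14 SE (adjusted p = 0.1) and -0.23 ± 0.11 (adjusted p = 0.12). For Acadvl 42.9% of exon bases overlap Dvl2 on the opposite strand, and whether the counting used strand is not given in the sources used here.

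Auxiliary enzymes handle unsaturated chains. Eci2, an enoyl-CoA isomerase, was at 117 and 115 CPM in wild type sham, 78.9 to 111 (median 87.4) in wild type TAC, 132 and 128 in knockout sham and 123, 99.2, 110 and 108 in knockout TAC, and fell by 0.28 ± 0.09 SE on the log2 scale averaged over the genotypes (adjusted p = 0.029). Eci1 and the dienoyl-CoA reductase Decr1 gave -0.44 ± 0.19 SE (adjusted p = 0.097) and -0.39 ± 0.15 (adjusted p = 0.069), and both passed without the library labelled WT TAC 1 (adjusted p = 0.027 and 0.014).

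Electrons from the dehydrogenases pass through the electron transfer flavoprotein to its membrane oxidoreductase. Etfdh, the oxidoreductase, was at 559 and 573 CPM in wild type sham, 241 to 506 (median 341) in wild type TAC, 654 and 547 in knockout sham and 514, 366, 471 and 428 in knockout TAC. It fell by 0.54 ± 0.16 SE on the log2 scale averaged over the genotypes (adjusted p = 0.022). Etfa, the alpha subunit, was at 453 and 464 CPM in wild type sham, 302 to 466 (median 360) in wild type TAC, 624 and 618 in knockout sham and 527, 411, 505 and 466 in knockout TAC. In wild type its TAC and sham hearts overlapped through the library labelled WT TAC 1 alone, and the averaged log2 fold change was -0.35 ± 0.10 SE (adjusted p = 0.022). Etfb, the beta subunit, was at 42.1 and 38.1, 26.5 to 48.9 (median 30.5), 50 and 72.5, and 49.1, 46.8, 58.2 and 58.9 CPM. Its averaged value was -0.21 ± 0.15 SE (adjusted p = 0.34).

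Of the 7 genes that set fuel choice or respond to PPAR-alpha, 6 were called lower in the averaged comparison, beside 11.6% of all genes. Acacb, the acetyl-CoA carboxylase whose product malonyl-CoA restrains carnitine acyltransferase, was at 304 and 313 CPM in wild type sham, 134 to 227 (median 188) in wild type TAC, 303 and 249 in knockout sham and 214, 188, 195 and 208 in knockout TAC. It fell by 0.75 ± 0.14 SE on the log2 scale in wild type (adjusted p = 0.0094). Mlycd, which breaks malonyl-CoA down, was at 95.8 and 90.4, 51.3 to 89.4 (median 71.3), 129 and 125, and 92.4, 80.9, 97.2 and 101 CPM, and fell by 0.43 ± 0.13 SE averaged over the genotypes (adjusted p = 0.023). Averaged over the genotypes, Acacb gave -0.60 ± 0.11 SE (adjusted p = 0.0013). RNA of the enzyme that makes malonyl-CoA and of the enzyme that removes it was thus lower in the averaged comparison. Mlycd was called in neither genotype alone (adjusted p = 0.12 in wild type and 0.18 in the knockout).

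Lpin1, a phosphatidate phosphatase that also acts with Ppargc1a, was at 110 and 119 CPM in wild type sham, 42.5 to 97.6 (median 65.5) in wild type TAC, 110 and 83.8 in knockout sham and 96, 78, 65.2 and 63.9 in knockout TAC. It fell by 0.76 ± 0.23 SE on the log2 scale in wild type (adjusted p = 0.046), a call that ended in 10 of 14 fits with a library omitted. Acot2, a mitochondrial acyl-CoA thioesterase, was at 52.9 and 47.4, 14.7 to 42.5 (median 32.9), 69.3 and 55.2, and 38.1, 33.1, 42.2 and 42.8 CPM, and fell by 0.69 ± 0.22 SE averaged over the genotypes (adjusted p = 0.038). Ucp3, an inner membrane carrier that follows fatty acid supply, spread widely in wild type TAC, from 2.88 to 31 CPM (median 9.77). With 31.9 and 26.6 CPM in wild type sham, 66 and 51.5 in knockout sham and 16.5, 21.7, 31.5 and 34.1 in knockout TAC, its averaged log2 fold change of -1.20 ± 0.45 SE missed the threshold (adjusted p = 0.076).

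Pdk4 and Acot1 had their highest levels in the knockout sham hearts. Pdk4, the kinase that blocks pyruvate dehydrogenase and so spares glucose, was at 182 and 193 CPM in wild type sham, 97.4 to 234 (median 155) in wild type TAC, 996 and 617 in knockout sham and 290, 240, 303 and 527 in knockout TAC. Acot1, a cytosolic acyl-CoA thioesterase induced by PPAR-alpha, was at 2.6 and 2.44 CPM in wild type sham, 0.809 to 2.87 (median 2) in wild type TAC, 12.7 and 8.37 in knockout sham and 2.92, 2.55, 4.15 and 4.94 in knockout TAC. In both genes the knockout sham hearts lay above every other heart. After TAC Acot1 fell by 1.55 ± 0.35 SE on the log2 scale in the knockout (adjusted p = 0.024), against -0.42 ± 0.37 in wild type (adjusted p = 0.47). Pdk4 gave -1.25 ± 0.34 SE in the knockout (adjusted p = 0.062) and -0.30 ± 0.33 in wild type (adjusted p = 0.58).

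The difference between the genotypes in the response to TAC was itself tested as the genotype by surgery interaction. None of the 35 was called (0% of all genes, and 0.0189% without the library labelled WT TAC 1). With edgeR 647 of the 15876 genes tested had an unadjusted p under 0.05, among them 1 of the 35. This was Acot1, at -1.12 ± 0.52 SE (edgeR adjusted p = 1). DESeq2 and limma also called 0 of the 35. Pdk4 gave -0.95 ± 0.49 SE and Ppara 0.66 ± 0.38 (both adjusted p = 1). With 2 sham hearts per genotype these SEs leave room for sizeable differences, and a lower or higher response in the knockout is not shown for any of the 35. The comparisons in the genotypes share no libraries, and their values are set side by side in the plot of both responses.

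**Figure D3:**
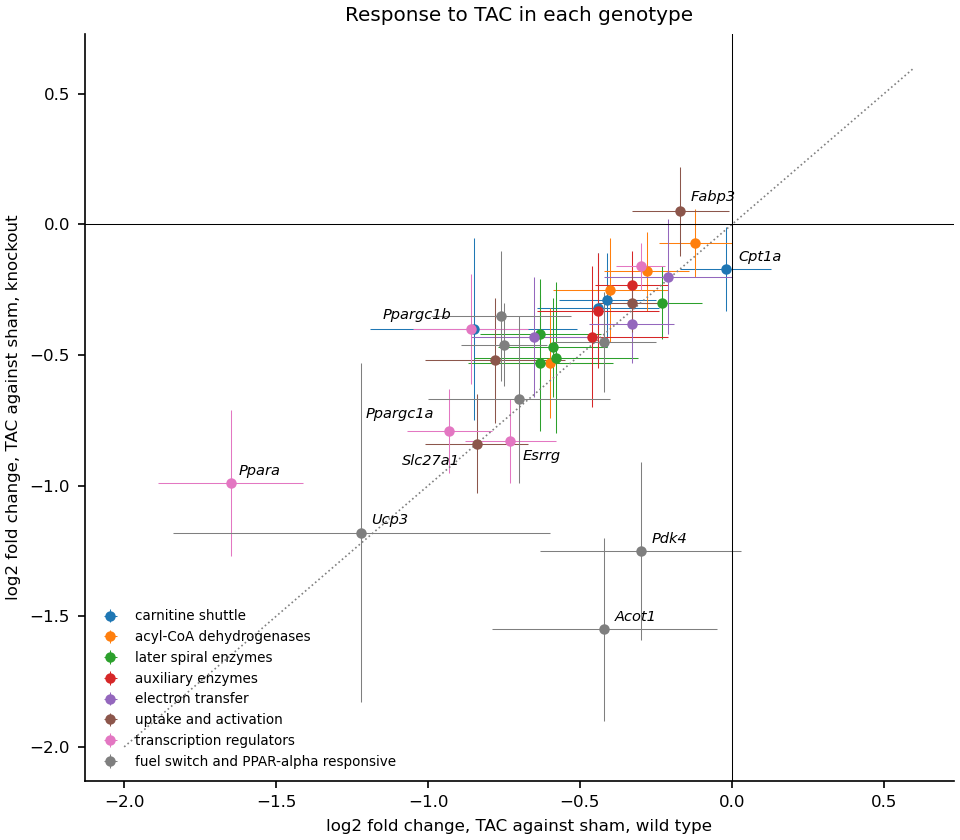
Log2 fold change of TAC against sham in wild type (x axis) and knockout hearts (y axis) for the 35 genes, coloured by role, with SE bars and the line of equal change. Of the 35, 34 lie below 0 on both axes. Pdk4 and Acot1 lie furthest below the line and Ppara above it, and none of these differences was called.

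Promoter sequences from RefSeq (GRCm38.p6), reaching from 250 bases before to 50 after a start, were matched for 31 of the 35 genes. The hexamer AGGTCA, which nuclear receptors of the PPAR and oestrogen-related receptor families bind as a unit, occurred on either strand in 8 of 31 windows (25.8%), beside 18.1% of 27025 genes. Its direct repeat with 1 base between the copies and the extended form TCAAGGTCA, both of which contain the hexamer, occurred in 0 of 31, beside 0.0481% and 0.466% of genes. A match is a string of letters and not a shown site, and a missing match says only that these letters are not in the window. The stretches below hold AGGTCA or its reverse complement TGACCT, in capitals. They lie before the start used for 4 genes, of which Ucp3 and Lpin1 share a role, and are restricted to bases in no annotated exon. They run 5′ to 3′ on the strand of the gene, which is the plus strand for Ucp3 (chr7:100472741-100472989) and the minus strand for Acadm (chr3:153944644-153944893), Lpin1 (chr12:16610967-16611216) and Cd36 (chr5:17835897-17836146). The start used for Cd36 lies inside the gene, which spans 17781690 to 17888801 in GENCODE, so its stretch is not at the outer end of the gene.
Ucp3: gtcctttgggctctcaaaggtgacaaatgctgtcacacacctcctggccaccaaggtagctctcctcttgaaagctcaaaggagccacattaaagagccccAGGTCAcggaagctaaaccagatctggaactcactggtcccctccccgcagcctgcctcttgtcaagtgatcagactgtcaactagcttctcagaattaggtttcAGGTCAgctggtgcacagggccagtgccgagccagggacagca
Acadm: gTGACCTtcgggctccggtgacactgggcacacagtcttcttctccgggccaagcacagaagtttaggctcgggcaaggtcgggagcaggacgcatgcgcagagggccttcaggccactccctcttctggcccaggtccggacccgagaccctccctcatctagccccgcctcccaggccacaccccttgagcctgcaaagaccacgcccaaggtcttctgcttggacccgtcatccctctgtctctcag
Lpin1: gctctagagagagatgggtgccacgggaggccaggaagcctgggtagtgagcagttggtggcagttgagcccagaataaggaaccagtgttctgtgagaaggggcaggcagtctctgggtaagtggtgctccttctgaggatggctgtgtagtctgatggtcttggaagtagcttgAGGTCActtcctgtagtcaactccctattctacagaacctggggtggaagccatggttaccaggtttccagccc
Cd36: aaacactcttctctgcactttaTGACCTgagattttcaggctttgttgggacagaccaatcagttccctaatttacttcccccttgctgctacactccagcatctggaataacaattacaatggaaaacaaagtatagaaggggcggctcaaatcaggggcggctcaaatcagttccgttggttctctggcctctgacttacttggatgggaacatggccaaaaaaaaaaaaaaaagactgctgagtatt
Ucp3 has 2 hexamers in this stretch and the others 1 each. The 4 genes differed in response, from -0.31 for Cd36 to -1.20 for Ucp3 on the log2 scale in the averaged comparison, and Ucp3 was not called.

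The next question was whether these genes differed between knockout and wild type hearts under load. After TAC, 5 of the 35 were higher in knockout than in wild type hearts: Cpt1b, Etfa, Etfb, Cd36 and Pdk4. The median log2 difference was 0.30, beside -0.01 over all genes, of which 3.71% were called higher. Without the library labelled WT TAC 1, 18 were called higher, with a median of 0.40 and 8.5% of all genes. The calls also rested on other libraries. There were 14 when wild type TAC replicate 2 was omitted, 2 without replicate 3, replicate 4 or replicate 6, and 3 without replicate 7. There were 3 without knockout TAC replicate 2, none without knockout TAC replicate 4 or replicate 5, and 3 without either wild type sham heart, which enter only through the shared spread. Scaling to cardiomyocyte structure genes gave a median of -0.16 over all genes, with 2552 genes lower and 235 higher against 894 and 589 with TMM. It left 3 of the 35 higher (Cpt1b, Etfb and Pdk4) and 1 lower (Esrra, -0.31, adjusted p = 0.023), with a median of 0.15. Fibroblast markers were lower in the knockout for 4 of 8 genes (8 of 8 with the library labelled WT TAC 1 omitted) and macrophage markers for 5 of 8 (8 of 8 with it omitted), beside 5.63% of all genes called lower (10% with it omitted). Their sums are given above, and their part in the differences was not tested. The same 5 genes were also above 0 in the knockout after sham. There the median of the 35 was 0.24, and none was called in the joint edgeR fit. No interaction was called for the 35, so a difference that arises only under load is not shown. Whether the differences come from the loss of Ccl24 or from another difference between the mice was not tested.

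Pdk4 gave the largest of the differences after TAC, 1.15 ± 0.26 SE (adjusted p = 0.021). Knockout TAC hearts were at 240 to 527 CPM and wild type TAC hearts at 97.4 to 234. Cpt1b was higher by 1.04 ± 0.27 SE (adjusted p = 0.03), although knockout TAC replicate 1, at 1.57 CPM, lay among the wild type hearts. Etfb was higher by 0.62 ± 0.17 SE (adjusted p = 0.036) and Etfa by 0.38 ± 0.11 (adjusted p = 0.046). In both the groups overlapped, through the library labelled WT TAC 1 alone (48.9 and 466 CPM). The other wild type TAC hearts reached 42.4 and 398 CPM, and the lowest knockout TAC hearts were at 46.8 and 411 CPM. Leaving out a library ended the call of Etfa in 11 of 14 fits, that of Etfb in 9 and that of Cpt1b in 6. Cd36 was higher by 0.36 ± 0.08 SE (adjusted p = 0.019), with knockout hearts at 1150 to 1360 CPM, the lowest of them just above the 1150 of the library labelled WT TAC 1 and all above the 956 to 1010 of the others.

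None of the 5 regulators was called, and their median difference was -0.04, with Ppara at -0.15 ± 0.22 SE (adjusted p = 0.68), Esrra at -0.17 ± 0.07 (adjusted p = 0.11, all knockout hearts below all wild type hearts), Esrrg at -0.04 ± 0.12 (adjusted p = 0.84), Ppargc1a at 0.09 ± 0.12 (adjusted p = 0.66) and Ppargc1b at 0.17 ± 0.16 (adjusted p = 0.5). All 3 auxiliary enzymes, all 4 dehydrogenases, all 5 later enzymes of the cycle and all 3 electron transfer genes were above 0. Their medians were 0.50, 0.28, 0.29 and 0.38. After sham all of these genes were above 0 too, with medians of 0.39, 0.22, 0.24 and 0.44. Without the library labelled WT TAC 1, the genes called higher after TAC included Acadl, Acadvl and Acads, Eci1, Eci2 and Decr1, Cpt2 and Slc25a20, Fabp3, Mlycd and Acot1. None of the regulators was among them.

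**Figure D4:**
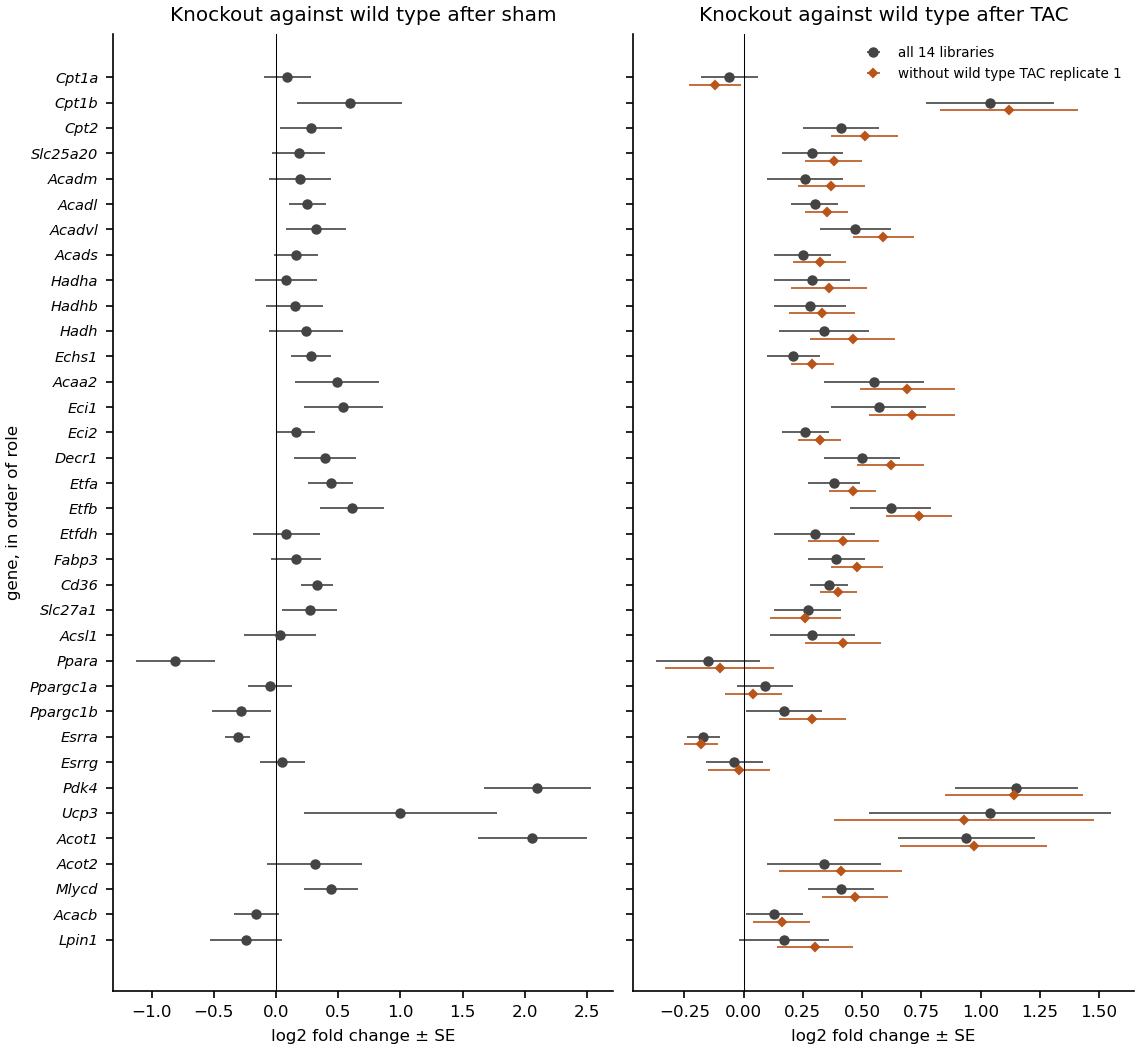
Log2 fold change of knockout against wild type with SE bars for the 35 genes (y axis, in order of role), after sham (left) and after TAC (right). Circles use all 14 libraries and diamonds leave out the library labelled WT TAC 1. Most enzymes lie above 0 in both panels, and after TAC the 5 regulators lie near it.

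After sham surgery, with 2 hearts per genotype, none of the 35 was called between knockout and wild type in the joint edgeR fit. This held with or without the library labelled WT TAC 1 (0.126% and 0.397% of all genes were called in either direction). Some were called when edgeR was run on the compared groups alone, as counted below. In the joint fit 7 of the 35 had an unadjusted p under 0.05, beside 1799 of the 15876 genes tested. The largest differences were those of Pdk4, 4.30-fold with a log2 SE of 0.43 (adjusted p = 0.1), and Acot1, 4.18-fold with a log2 SE of 0.44 (adjusted p = 0.093), with both knockout hearts above both wild type hearts. DESeq2 called both genes (adjusted p = 0.0026 and 0.0015), and limma called neither (adjusted p = 0.062 and 0.095). Acot1 passed without wild type TAC replicate 7 (adjusted p = 0.011). Ppara itself pointed the other way, at -0.81 ± 0.32 SE (adjusted p = 0.34), as did Esrra at -0.31 ± 0.10 (adjusted p = 0.29). The median over the 35 was 0.24, beside 0.01 over all genes, and 0.09 with scaling to the cardiomyocyte structure genes, where all genes had a median of -0.14.

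The decrease after TAC was set beside lists of nearby pathways. Of 38 nuclear-encoded genes of the respiratory chain, 0 were called in wild type TAC against sham by edgeR, beside 5.8% of all genes called lower. At an unadjusted p under 0.05 there were 2, beside 4776 of the 15876 genes tested. In the averaged comparison 2 of 38 were called, beside 11.6% of all genes called lower. The 2 were Sdha (-0.42 ± 0.11 SE, adjusted p = 0.016) and Ndufs1 (-0.41 ± 0.10, adjusted p = 0.01), and the list median was -0.06. The same 38 genes were all above 0 in knockout against wild type after TAC, with a median of 0.35. Of them 16 were called higher (32 without the library labelled WT TAC 1), beside 3.71% of all genes (8.5% without it). After sham the 38 were also all above 0 in the knockout, with a median of 0.39 and none called in the joint edgeR fit. Of 23 genes of glucose uptake and glycolysis, 5 were lower and 4 higher in the averaged TAC comparison, in which 11.6% of all genes were called lower and 12.7% higher. The lower ones included Hk2, a hexokinase (-0.41 ± 0.08 SE, adjusted p = 0.0031), Slc2a4, the insulin-responsive glucose carrier (-0.45 ± 0.10, adjusted p = 0.0061), and Pfkm, muscle phosphofructokinase (-0.42 ± 0.11, adjusted p = 0.015).

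Other lipid genes were read the same way, beside the 11.6% of all genes called lower and 12.7% called higher in the averaged TAC comparison. In the averaged TAC comparison 8 of 19 genes of peroxisomal oxidation were lower and none higher, among them Pex11a, a peroxisome division factor (-0.59 ± 0.10 SE, adjusted p = 0.00099), Ehhadh, the peroxisomal bifunctional enzyme (-0.77 ± 0.17, adjusted p = 0.0052), and Crat, carnitine acetyltransferase (-0.46 ± 0.11, adjusted p = 0.0072). Of 18 other mitochondrial acyl-CoA enzymes and carriers 10 were lower, such as Pdp2, the phosphatase that opposes Pdk4 (-0.96 ± 0.17 SE, adjusted p = 0.002), and 1 was higher, Ucp2 (0.94 ± 0.14, adjusted p = 0.00068). Of 23 other receptors and cofactors 11 were lower and none higher, led by Klf15, a factor of heart lipid metabolism (-0.68 ± 0.10 SE, adjusted p = 0.00043), and including Perm1, a muscle regulator of oxidative genes (-0.62 ± 0.11, adjusted p = 0.0018).

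Lipid uptake and storage genes were mixed, beside the same 11.6% of all genes called lower and 12.7% called higher. Of 18 other uptake, activation and thioesterase genes tested, 5 were lower, among them Vldlr, a lipoprotein receptor (-0.69 ± 0.09 SE, adjusted p = 0.00034), and Slc22a5, the carnitine carrier (-0.67 ± 0.11, adjusted p = 0.00083). Another 3 were higher, among them Fabp5 (0.53 ± 0.10 SE, adjusted p = 0.0016). Of 19 lipid droplet and lipolysis genes 6 were lower and none higher, with Lpl, lipoprotein lipase, at -0.52 ± 0.09 SE (adjusted p = 0.0015) and Pnpla2, the first lipase of triglyceride breakdown, at -0.29 ± 0.08 (adjusted p = 0.018). Of the lipid synthesis genes, 6 of 14 were higher, beside 12.7% of all genes, among them the desaturases Fads1 (0.34 ± 0.07 SE, adjusted p = 0.0025) and Scd1 (0.42 ± 0.12, adjusted p = 0.017), and 1 lower, Srebf1 (-0.26 ± 0.08, adjusted p = 0.022).

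**Figure D5:**
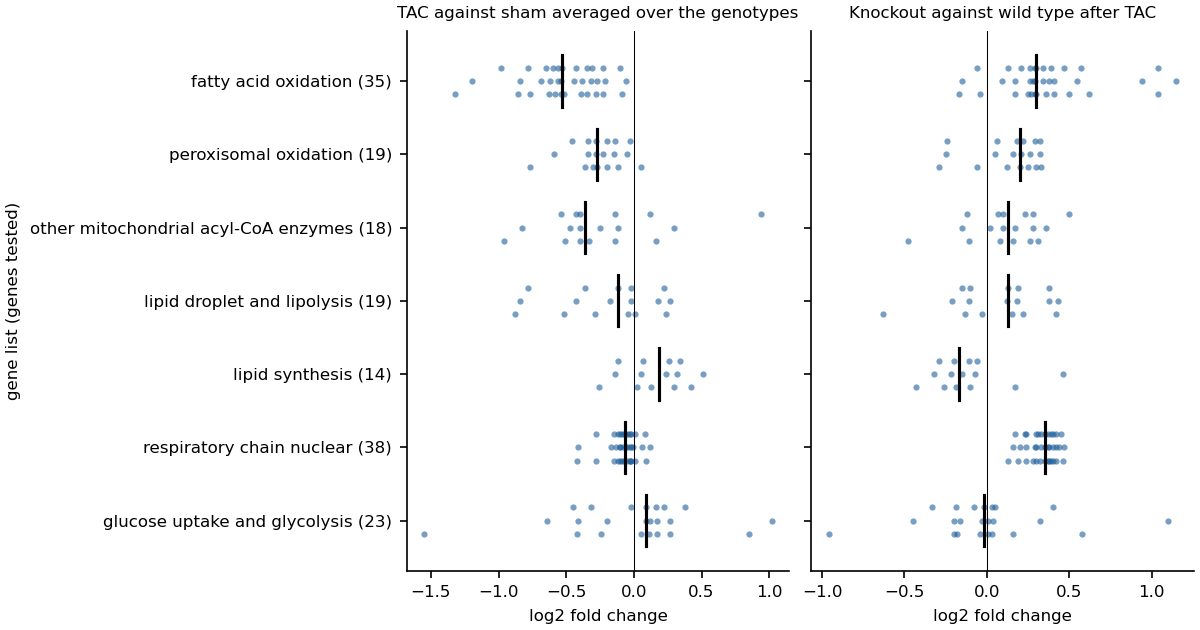
Log2 fold change of each gene (points) of the 35 and of 6 other lists, for TAC against sham averaged over the genotypes (left) and knockout against wild type after TAC (right). Black bars are list medians. On the left the 35 have a median of -0.53 and the respiratory chain -0.06, and on the right the medians are 0.30 and 0.35.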

How the data were processed

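PolyA RNA of ventricular tissue was sequenced from 14 mice in 4 groups. The authors deposited 1 table of raw read counts, whole numbers that had not been normalized. Per the submitters' processing notes, FastQC, HISAT2 2.1.0, featureCounts and edgeR were used on GRCm38. The sources used here do not give the annotation, the settings or whether strand was used.

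Differential expression was computed with edgeR 4.0.16 in R 4.3.3: filterByExpr on the group (15876 genes), TMM, 4 group means over all 14 libraries, robust glmQLFit and the quasi-likelihood F test, with Benjamini-Hochberg adjustment and a threshold of 0.05. All groups share an estimate of the spread. The SE is the size of the log2 fold change divided by the square root of F. The averaged TAC effect is the mean of both genotypes' effects. No libraries of a group agreed within sampling noise (chi-square per degree of freedom 4.55 or more). The steps were tested on simulated counts.

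The 35 genes, the other lists and the markers were chosen with earlier results of these data known. All 35 genes may be named, genes called in any comparison and the 5 regulators are given in every library, and of every other list the named genes are among the 4 with the smallest p in the averaged comparison. Genes named outside this rule are marked. Alternatives were RLE size factors, scaling without mitochondrially encoded genes or to 14 cardiomyocyte structure genes, no filter, DESeq2 1.42.0, limma 3.58.1 (voom), the replicate number as a block, the compared groups alone, and leaving out each library. Coordinates and exon lengths are from GENCODE M21 (GRCm38), in which 54409 of the 54532 gene IDs were found.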

Additional observations from a re-analysis of the deposited data

Results flagged for a closer look

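In groups of 4 or 6 hearts, the gap of the highest or lowest heart to the nearest other was set against Dixon's 95% critical value for each of the 35 genes. Of 70 groups tested, 4 stood out, and chance gives about 1 in 20. Cpt1b was at 1.57 CPM in knockout TAC replicate 1, against 4.3 to 4.68 in the other 3 hearts of the group. Fabp3 was at 3370 CPM in knockout TAC replicate 2, against 4150 to 4200. Cd36 was at 1150 CPM in the library labelled WT TAC 1, against 956 to 1010 in the other wild type TAC hearts. Esrrg was at 13.8 CPM in wild type TAC replicate 7, against 17 to 18.6.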

How the results depend on the processing

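Counts of the 35 genes called are given first. For TAC against sham in wild type it was 11, and 7 without a filter, 5 with only the compared groups, and 0 to 21 when leaving out each library in turn. For TAC against sham in the knockout it was 4, and 7 with DESeq2, 12 with only the compared groups, and 0 to 7 leaving out a library. For the averaged TAC effect it was 22, and 7 to 29 leaving out a library. For knockout against wild type after TAC it was 5, and 13 with DESeq2, 3 with only the compared groups, and 0 to 18 leaving out a library. After sham it was 0, and 2 with DESeq2, 10 with only the compared groups, and 0 to 1 leaving out a library. For the interaction it was 0 under every alternative run. The share of all genes called under each alternative is not given here, so these shifts cannot be read as particular to the 35. The cause of these shifts was not tested.

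With the replicate number as a block, 0, 4, 10, 0, 1 and 0 of the 35 were called in these comparisons, in the order above. Libraries with the same number did not deviate together (correlations of -0.22 to 0.06), so the numbers were not taken to pair mice.

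The following values changed direction, none of them called. For genes without a value in the text after sham or in the interaction, only scaling to cardiomyocyte structure genes and omitting WT TAC 1 were read. Cpt1a in wild type TAC went from -0.02 to 0.01 with the replicate block, and leaving out a library gave -0.13 to 0.10. Etfb in wild type TAC went to 0.04 with the replicate block, and in knockout TAC to -0.44 to 0.09 leaving out a library. Fabp3 in knockout TAC went to -0.03 to 0.14 leaving out a library, and to 0.01 in the averaged effect with the replicate block. In knockout against wild type after TAC, leaving out a library gave -0.12 to 0.01 for Cpt1a and -0.16 to 0.04 for Esrrg. Ppargc1b went to -0.01 with the replicate block, Ppargc1a to -0.08 with scaling to cardiomyocyte structure genes, and Acacb to -0.02 with that scaling and -0.01 with the block. In the genotype comparison after sham, scaling to cardiomyocyte structure genes also turned Cpt1a from 0.09 to -0.06, Hadha and Etfdh from 0.08 to -0.06, Acsl1 from 0.03 to -0.11 and Esrrg from 0.05 to -0.09. In the interaction, omitting WT TAC 1 turned Etfa from -0.06 to 0.03, Mlycd from -0.03 to 0.02 and Ucp3 from 0.03 to -0.07. With 2 sham hearts per genotype, every comparison with sham is limited by those hearts.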

Other observations

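Of 7 skeletal muscle markers, 1 stood apart in wild type TAC replicate 7 and was chosen after its values were seen. Tnnt3, a troponin of fast skeletal muscle, held 380 counts there and 8 to 40 in the other libraries. The rest of the list did not follow it. Myh1, Myh2, Myh4 and Actn3 held 0, 1, 3 and 8 counts in that heart, Tnni2 was at 1.02 CPM against 0.331 to 1.41 elsewhere, and Ckm, at 1960 CPM, was the lowest of the 14 libraries.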
